A study of Mus musculus with 12 samples.

Results

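The transcripts described here encode the nuclear subunits of respiratory complex I (NADH:ubiquinone oxidoreductase) in mouse brown adipose tissue. They were taken as every gene whose probe set carries a single platform symbol made of Ndufa, Ndufb, Ndufc, Ndufs or Ndufv and a number, together with Ndufab1, and assembly factors were left out. Each gene was read from its brightest probe set. This gave 33 genes of the 22180 with such a probe set. Subunits encoded by mitochondrial DNA were not analysed here.

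Complex I takes electrons from NADH at a flavin in its matrix arm, passes them along a chain of iron-sulfur clusters to ubiquinone, and pumps protons with its membrane arm. A conserved set of core subunits does this work, and many accessory subunits surround them and are needed for assembly and stability. Brown adipocytes hold many mitochondria, in which the uncoupling protein Ucp1 lets protons return without making ATP, so that the respiratory chain releases heat.

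RNA came from brown adipose tissue of C57BL/6J mice that had been fasted for 5 h either at room temperature or at 4 °C, and each of the 4 combinations of genotype and temperature had 3 arrays, 12 in all. Controls, littermates labelled wildtype, carried floxed Sel1L alleles (Sel1L f/f). Mice labelled Sel1L deficient, called knockout here, came from a cross of such mice with Adiponectin-Cre, whose recombinase acts in adipocytes, so that other cells of the tissue keep the gene. The series text speaks of isolated brown adipocytes and the sample labels of tissue. Sel1L is the partner of the ubiquitin ligase Hrd1 in ER-associated degradation, and the series asks how loss of this pathway bears on thermogenesis. Ages are not given. The values are log2 levels, and differences are given as knockout minus control or as 4 °C minus room temperature with the standard error (SE) of the limma model. A difference was called at an adjusted p under 0.05 over all 23521 probe sets with 1 symbol. Probe sets differ in how strongly they bind, so levels were compared between arrays and never between genes.

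Several readings bear on the labels. Sel1l was lower in the arrays labelled knockout at room temperature (-1.12, adjusted p = 0.00114) but not called at 4 °C (-0.19, adjusted p = 0.605), which leaves the label of those arrays unchecked at 4 °C. Control replicate 3 at room temperature is labelled 4 °C in its source name only, and was analysed as room temperature. Its Ppargc1a, a cold-induced coactivator, read 8.17, against 8.08 and 7.26 in the other room temperature controls and 10.94 to 11.49 in the 4 °C controls. All 10 brown adipocyte markers were measured and none lay below the array median on all arrays. Ucp1 read between 12.38 and 12.83 on each array. Skeletal muscle RNA varied: the mean log2 value of 18 muscle markers was 6.33 to 7.25 and 4.74 to 7.85 in the controls at room temperature and at 4 °C, and 2.90 to 6.28 and 2.55 to 6.60 in the arrays labelled knockout. In bulk tissue, fewer cells of a type and less RNA per cell cannot be told apart.

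Complex I transcripts were slightly lower in the arrays labelled knockout, and 7 subunits fell when both temperatures were averaged: Ndufs8 and Ndufv1 of the core, Ndufa9 of the matrix arm, Ndufa1 and Ndufa10 of the proximal membrane arm, and Ndufb3 and Ndufb5 of the distal membrane arm. These are 7 of 33, where 2.73% of all probe sets tested fell. Bright probe sets were called more often: 6.53% of those with a mean of at least 4 fell, and 11.4% of those with a mean of at least 8, a range that holds all 7 and 22 of the 33 subunits. At room temperature 1 subunit fell (Ndufa1), where 0.429% of probe sets did, and at 4 °C 2 fell (Ndufa1 and Ndufb3), where 2.19% did. Of the probe sets with a mean of at least 8, 1.55% fell at room temperature and 8.51% at 4 °C, and the 4 °C count of 2 among the 22 bright subunits lay near that share. No subunit rose, where 1.29%, 3.61% and 4.24% of probe sets rose at room temperature, at 4 °C and on average (subunits higher at an unadjusted p under 0.05 numbered 0, 1 and 1). The median of the 33 differences was -0.21 at room temperature, -0.14 at 4 °C and -0.20 averaged, while the medians over all probe sets were -0.01 in each case. Of the 33 differences, 31 were below 0 at room temperature (51.2% of all probe sets) and 27 at 4 °C (52.4%). The sign was below 0 at both temperatures for 26 (30.7%), and the averaged difference for 30 (52.5%). The changes were small, from 1.19-fold for Ndufb5 to 1.57-fold for Ndufa1.

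The same values were also read array by array. At room temperature the arrays labelled knockout lay wholly below the controls for 20 subunits, where 8.62% of probe sets did, and wholly above for 1 (8.76%). At 4 °C they lay below for 13 (10.7%) and above for 1 (11.2%), and 9 subunits lay below at both (2.05%). Bright probe sets separated more often. Of the 1034 with a mean of at least 8, 196 lay below at room temperature and 263 at 4 °C. Of the 22 subunits in that range, 13 and 11 did. For 6 subunits, Ndufa1, Ndufa10, Ndufa4, Ndufa9, Ndufb3 and Ndufb5, all 6 arrays labelled knockout lay below all 6 controls, which 0.727% of probe sets did. The reverse held for Ndufb9 alone (1.85%).

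**Figure D1:**
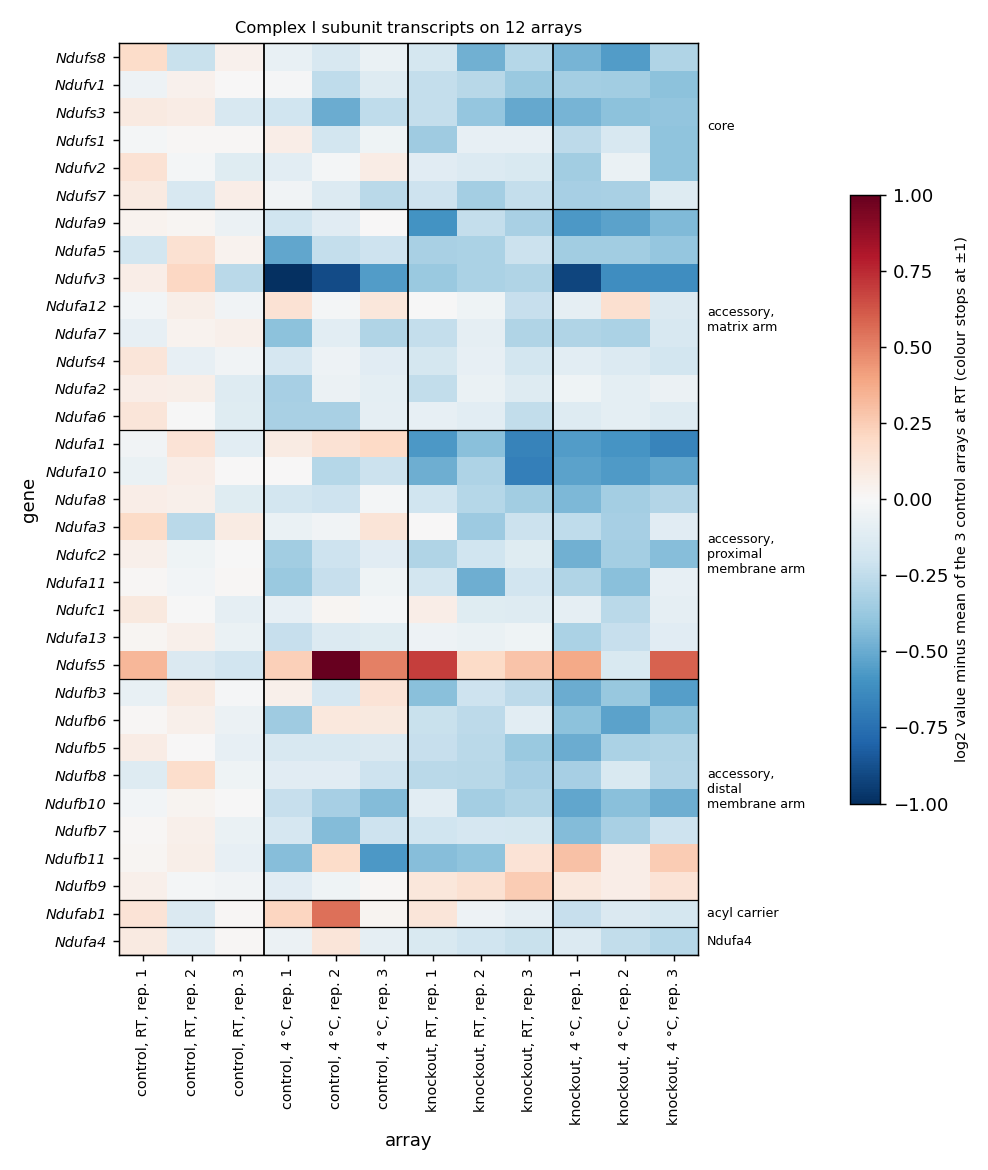
Each row is 1 of the 33 subunit genes, ordered by role, and each column is 1 of the 12 arrays; colour shows the log2 value minus the mean of the 3 room temperature controls and stops at ±1. Blue, meaning lower, covers most of the columns of the arrays labelled knockout, and Ndufv3 is bluest at 4 °C.

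Among the core subunits, which carry the flavin and the iron-sulfur clusters, all 6 measured genes had differences below 0 at both temperatures, with medians of -0.28 at room temperature and -0.23 at 4 °C, and 2 fell on average. Ndufv1, which binds NADH and the flavin, read 9.86, 9.96 and 9.92 in room temperature controls, 9.91, 9.66 and 9.79 in those at 4 °C, 9.67, 9.64 and 9.54 in the arrays labelled knockout at room temperature, and 9.58, 9.57 and 9.50 in those at 4 °C. The genotypes did not overlap within either temperature. Its averaged difference was -0.27 ± 0.07 SE (adjusted p = 0.0349). Ndufs8, an iron-sulfur subunit in the chain that leads to the ubiquinone site, read 10.25, 9.85 and 10.11, and at 4 °C 10.00, 9.91 and 10.00, in the controls, against 9.90, 9.59 and 9.79, and at 4 °C 9.61, 9.51 and 9.77, in the arrays labelled knockout. Here 1 low control overlapped at room temperature, and the averaged difference was -0.33 ± 0.09 (adjusted p = 0.0489). Both calls sat close to the threshold: leaving out 1 array ended the Ndufv1 call in 10 of 12 cases (highest adjusted p 0.0846, with control replicate 1 at 4 °C left out; held only without control replicate 2 at 4 °C or knockout replicate 1 at room temperature) and the Ndufs8 call in 9 of 12 (highest adjusted p 0.115, with knockout replicate 2 at 4 °C left out; held only without control replicate 2 or knockout replicate 1 at room temperature or knockout replicate 3 at 4 °C).

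The other core subunits were not called in any comparison. Ndufs1, the largest iron-sulfur subunit, read 9.62, 9.65 and 9.66 in the room temperature controls and 9.71, 9.46 and 9.60 in those at 4 °C, against 9.29, 9.56 and 9.57, and 9.39, 9.49 and 9.24, in the arrays labelled knockout. Ndufs3 read 6.58, 6.57 and 6.33, and 6.30, 6.00 and 6.24, in the controls, against 6.25, 6.11 and 5.98, and 6.03, 6.09 and 6.10. Its room temperature arrays did not overlap (-0.38 ± 0.12, adjusted p = 0.158). Ndufs7, which holds the last cluster before ubiquinone, read 10.50, 10.25 and 10.47, and 10.37, 10.27 and 10.14, in the controls, against 10.20, 10.07 and 10.17, and 10.07, 10.08 and 10.28. Ndufv2, the partner of Ndufv1, read 10.22, 10.06 and 9.95, and 9.97, 10.06 and 10.15, in the controls, against 9.96, 9.94 and 9.92, and 9.73, 10.01 and 9.68, and its groups overlapped at both temperatures.

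Of 8 matrix arm accessory subunits, 1 fell by genotype. Ndufa9, which binds a nucleotide cofactor beside the ubiquinone site, read 10.11, 10.09 and 10.01 in room temperature controls and 9.87, 9.96 and 10.07 in those at 4 °C. The arrays labelled knockout read 9.47, 9.83 and 9.75, and 9.49, 9.54 and 9.63. All 6 lay below every control, and the averaged difference was -0.40 ± 0.08 (adjusted p = 0.00835), kept in all 12 fits without 1 array. The median of the group stood at -0.18 at room temperature, with 8 of 8 below 0, and at -0.01 at 4 °C, with 4 of 8 below 0. Ndufa6, Ndufa2, Ndufv3 and Ndufa7 were the 4 with differences above 0 at 4 °C, from 0.01 to 0.13, and none of these was called. Ndufs4, a small subunit whose loss stops stable attachment of the NADH-binding module, read -0.14 ± 0.10 and -0.03 ± 0.10 (adjusted p = 0.599 and 0.931).

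Ndufa1 and Ndufa10, with the largest averaged falls by genotype, belong to the proximal membrane arm. The arm as a group did not stand out. Its median averaged difference was -0.20, against -0.20 in the distal membrane arm, -0.22 in the core and -0.10 among matrix arm accessory subunits. Ndufa1, a small single-helix subunit needed early in assembly and encoded on the X chromosome, read 9.20, 9.38 and 9.14 in room temperature controls and 9.32, 9.38 and 9.44 in those at 4 °C. It read 8.67, 8.82 and 8.57 and, at 4 °C, 8.68, 8.65 and 8.58 in the arrays labelled knockout. The highest of these, 8.82, lay below the lowest control. Ndufa1 was 1.47-fold lower at room temperature (-0.55 ± 0.11, adjusted p = 0.0184) and 1.67-fold lower at 4 °C (-0.74 ± 0.11, adjusted p = 0.000813), and the averaged difference was -0.65 ± 0.07 (adjusted p = 0.000121). The calls at 4 °C and on average held in all 12 fits without 1 array. The room temperature call was lost without control replicate 1 or 2 or knockout replicate 1 or 3 at that temperature (highest adjusted p 0.0814, with control replicate 2 left out), with differences of -0.62 to -0.48.

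Ndufa10, a subunit on the matrix face with a nucleoside kinase fold, read 10.93, 11.07 and 11.00, and 11.01, 10.72 and 10.78 at 4 °C, in the controls. The arrays labelled knockout read 10.52, 10.70 and 10.32, and 10.46, 10.44 and 10.48 at 4 °C, all below every control. The averaged difference was -0.43 ± 0.08 (adjusted p = 0.00649), kept in all 12 fits without 1 array. At single temperatures it missed the threshold, with -0.49 ± 0.12 (adjusted p = 0.0581) and -0.37 ± 0.12 (adjusted p = 0.0944). Ndufa8, an intermembrane space subunit held by disulfides, was not called on average (-0.25 ± 0.07, adjusted p = 0.0605). Ndufa13, also known as GRIM-19, differed by -0.06 ± 0.07 on average (95% interval -0.20 to 0.09). Of the 9 genes of this arm, 8 lay below 0 at room temperature and 9 at 4 °C. The exception, Ndufs5, had the largest non-called difference above 0 at room temperature (0.39 ± 0.24) on a dim probe set with a mean of 3.46. A brighter probe set that Ndufs5 shares with Ndufs5-ps (mean 8.01) had the other sign there (-0.17 ± 0.10, adjusted p = 0.615 in limma over all probe sets).

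In the distal membrane arm, 2 of 8 measured genes fell on average. Ndufb3 read 8.32, 8.49 and 8.39, and 8.45, 8.23 and 8.54 at 4 °C, in the controls, against 7.98, 8.19 and 8.14, and 7.90, 8.02 and 7.85 at 4 °C, in the arrays labelled knockout. The genotypes did not overlap. Ndufb3 was 1.4-fold lower at 4 °C (-0.48 ± 0.11, adjusted p = 0.0226) and lower on average (-0.39 ± 0.08, adjusted p = 0.00882). The averaged call held in all 12 fits without 1 array, while the 4 °C call was lost without control replicate 1 or 3 or knockout replicate 1 or 3 at 4 °C (highest adjusted p 0.0896, with knockout replicate 3 left out; differences -0.57 to -0.42). Ndufb5 read 8.76, 8.69 and 8.60, and 8.52, 8.52 and 8.54, in the controls, against 8.45, 8.41 and 8.31, and 8.19, 8.36 and 8.38. All 6 arrays labelled knockout lay below the controls (-0.25 ± 0.07, adjusted p = 0.0452), yet the call ended whichever array was left out (adjusted p 0.0536 to 0.107).

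Ndufb9 and Ndufb11, of the same arm, had averaged differences above 0, and neither was called. Ndufb9, which binds the acyl carrier protein, read 11.59, 11.52 and 11.51, and 11.43, 11.50 and 11.55, in the controls, against 11.65, 11.70 and 11.79, and 11.65, 11.61 and 11.68, in the arrays labelled knockout. The groups did not overlap (0.16 ± 0.06, adjusted p = 0.177). Ndufb11, which like Ndufa1 is X-linked, read 5.51, 5.54 and 5.41, and 5.06, 5.67 and 4.91, in the controls, against 5.06, 5.08 and 5.62, and 5.78, 5.55 and 5.74. Its differences were -0.23 ± 0.19 at room temperature and 0.48 ± 0.19 at 4 °C (adjusted p = 0.701 and 0.216). The acyl carrier protein Ndufab1, which also serves mitochondrial fatty acid synthesis, differed by -0.0044 ± 0.14 at room temperature and -0.45 ± 0.14 at 4 °C (adjusted p = 0.994 and 0.0800). Ndufa4, later found to belong with complex IV, read 11.71, 11.51 and 11.63, and 11.56, 11.74 and 11.52, in the controls, against 11.46, 11.41 and 11.39, and 11.48, 11.37 and 11.33, with no overlap and no call (-0.20 ± 0.07, adjusted p = 0.122).

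**Figure D2:**
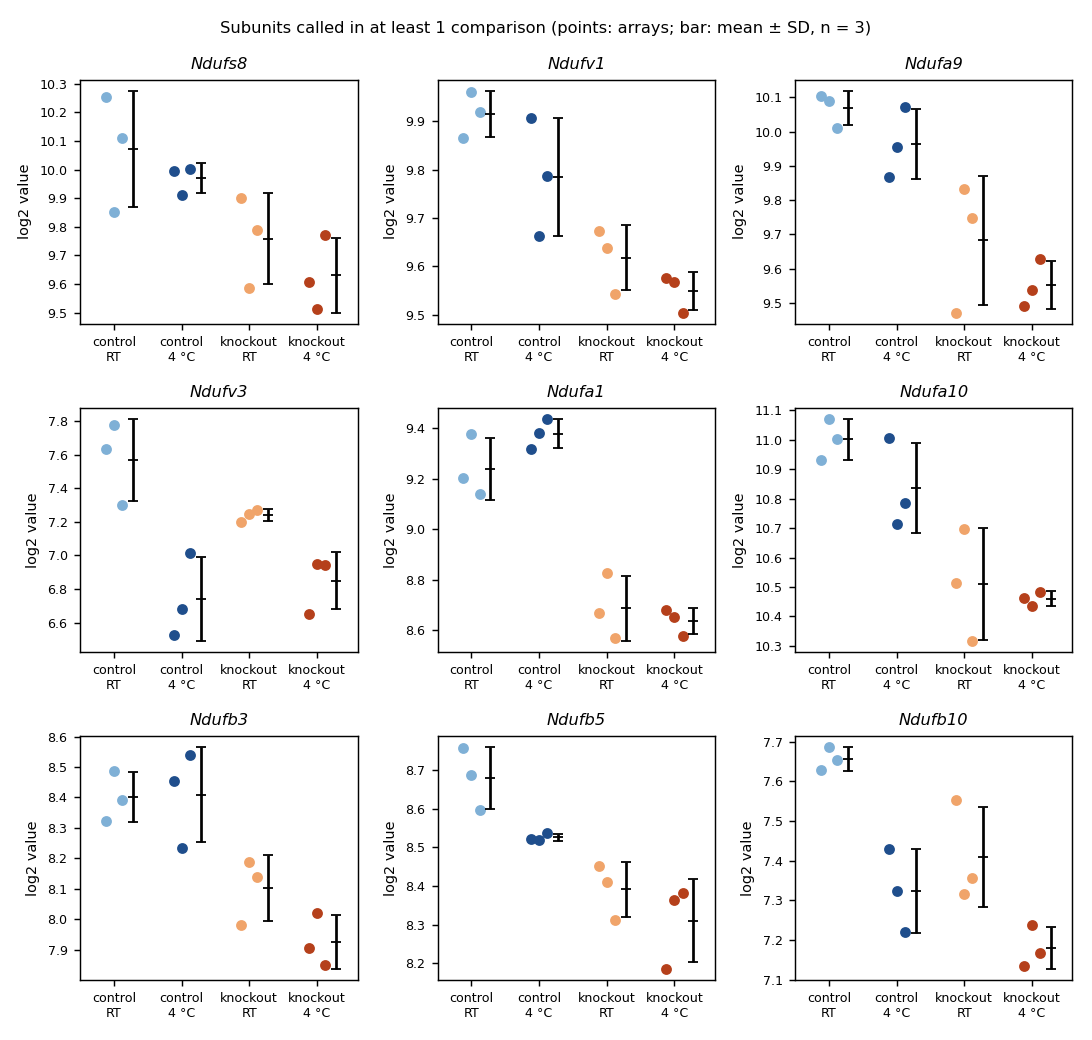
Log2 values of the 9 subunits called in at least 1 comparison, with 1 panel per gene and its own scale; points are arrays and bars are the mean ± SD of 3 arrays per group. Arrays labelled knockout lie below all controls for Ndufa1, Ndufa10, Ndufa9, Ndufb3 and Ndufb5, and Ndufv3 separates the temperatures within each genotype.

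Few subunits were called in the cold comparisons, while most of the 33 differences lay slightly below 0. In the controls, 1 of 33 fell at 4 °C, where 6.23% of probe sets did, and in the arrays labelled knockout 0 did by limma, where 4.7% did (3 had an unadjusted p under 0.05). Averaged over genotype 2 fell, where 10.1% did. None rose, where 4.85%, 4.32% and 7.51% of probe sets did in the controls, in the arrays labelled knockout and on average (1, 1 and 0 subunits were higher at an unadjusted p under 0.05). The medians were -0.14 in the controls, -0.08 in the arrays labelled knockout and -0.10 averaged, with 27, 25 and 28 differences below 0 (52.1%, 52.6% and 52.4% of probe sets). The 4 °C arrays lay wholly below the room temperature arrays for 10 subunits in the controls (14.3% of probe sets) and for 8 in the arrays labelled knockout (14.1%), and wholly above for 0 in either (11.6% and 11.7%). Of the 22 subunits with a mean of at least 8, 4 and 3 lay wholly below, where 204 and 211 of 1034 such probe sets did. The cold comparison of the controls shares its arrays with the genotype comparisons at each temperature.

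The cold-lowered subunits were Ndufv3 and Ndufb10. Ndufv3, a small accessory subunit at the NADH-binding end, read 7.63, 7.78 and 7.30 in room temperature controls and 6.53, 6.68 and 7.01 in 4 °C controls. It read 7.20, 7.25 and 7.27, and at 4 °C 6.65, 6.95 and 6.95, in the arrays labelled knockout. The temperatures did not overlap in either genotype. It was 1.78-fold lower in the cold in the controls (-0.83 ± 0.15, adjusted p = 0.00406), differed by -0.39 ± 0.15 in the arrays labelled knockout (adjusted p = 0.155), and fell on average (-0.61 ± 0.11, adjusted p = 0.0016). The difference between these responses was not called (0.44 ± 0.22, 95% interval -0.03 to 0.91, adjusted p = 0.554). Ndufb10, a disulfide-bearing subunit on the intermembrane side, read 7.63, 7.69 and 7.65, and 7.43, 7.32 and 7.22 at 4 °C, in the controls, and 7.55, 7.32 and 7.36, and 7.14, 7.24 and 7.17 at 4 °C, in the arrays labelled knockout. The temperatures did not overlap within either genotype. Its averaged difference was -0.28 ± 0.07 (adjusted p = 0.0156). With control replicate 3 analysed as a 4 °C array, as its source name has it, the Ndufb10 call and the Ndufv3 call in controls were lost at differences of -0.24 and -0.83 (adjusted p = 0.121 and 0.108).

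No subunit's cold response differed between genotypes by the interaction test in limma (0 of 33, where 0.306% of probe sets were called; 2 subunits had an unadjusted p under 0.05). The largest estimates were -0.72 ± 0.34 for Ndufs5, 0.71 ± 0.27 for Ndufb11 and -0.44 ± 0.19 for Ndufab1 (adjusted p = 0.533, 0.397 and 0.474), and the median was 0.05. The Ndufs5 estimate came from its dim probe set. The bright probe set shared with Ndufs5-ps gave 0.20 ± 0.14 (adjusted p = 0.777 in limma over all probe sets). For Ndufa1 the interval of this difference ran from -0.51 to 0.13, and for Ndufa10 from -0.24 to 0.48.

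**Figure D3:**
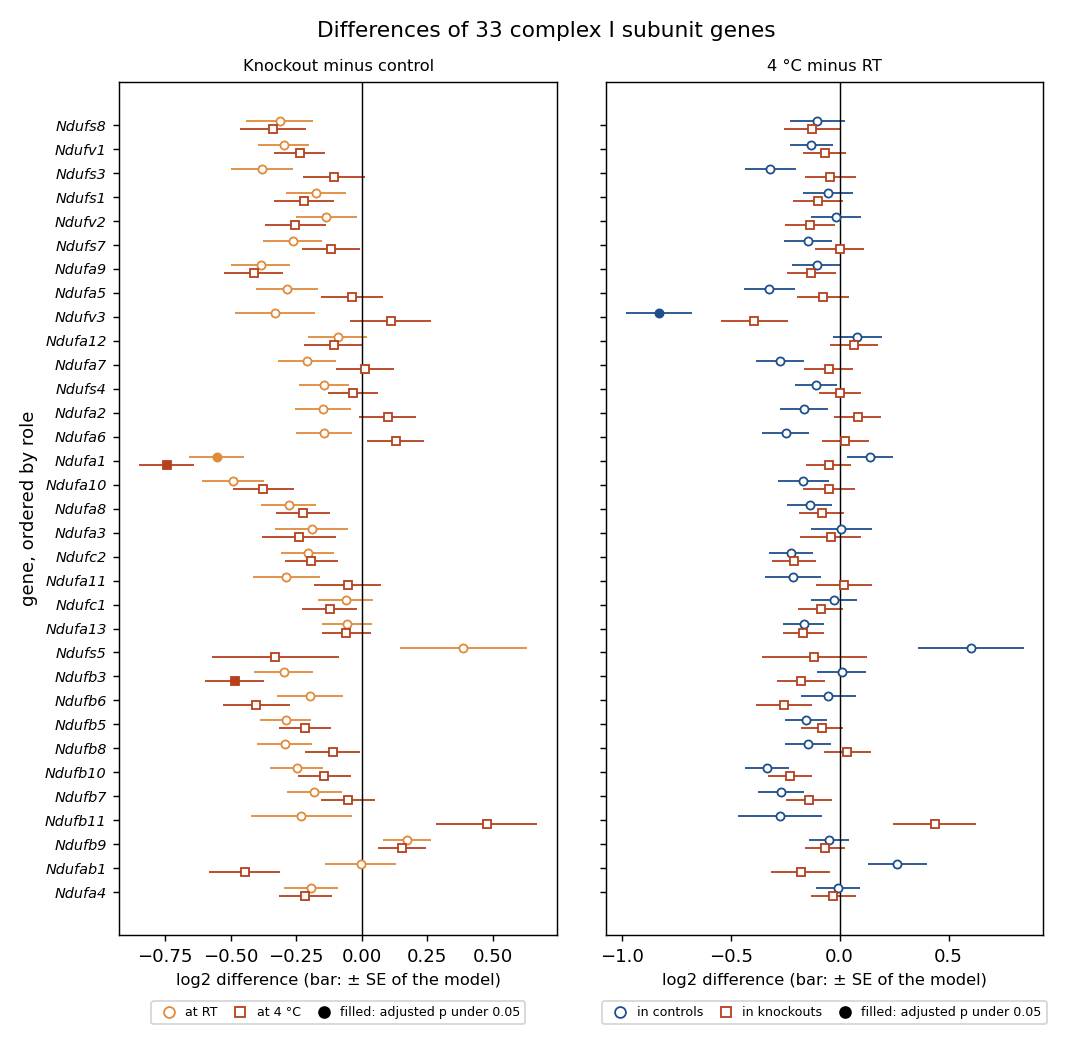
Log2 differences of the 33 subunits with bars of ± 1 SE, as knockout minus control at each temperature (left) and 4 °C minus room temperature in each genotype (right); filled points passed an adjusted p of 0.05. Most points in the left panel lie below 0, and the filled ones are Ndufa1 at both temperatures and Ndufb3 at 4 °C, while Ndufv3 in controls is the filled one on the right.

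Since 7 subunits fell together by genotype, their promoters were set beside those of other subunits for short matches to binding motifs of factors known to act on respiratory genes. RefSeq promoters (GRCm38.p6, 250 bases before to 50 after the start) were found for 30 of the 33 genes. The letters searched on both strands were GCGCANGCG for NRF1, CCGGAAGT for ETS factors such as GABP, CAAGGTCA for ERR receptors and AAGATGGC for YY1. None of the 7 held the NRF1, ETS or ERR letters, and Ndufa9 held the YY1 letters. The 120 bases before the start are shown for Ndufa1 (chrX:37191239-37191358, minus strand), Ndufa10 (chr1:92473759-92473878, minus strand) and Ndufb3 (chr1:58586277-58586396, plus strand), the 3 subunits of the membrane arm with the largest averaged falls. Ndufa8 (chr2:36049339-36049458, minus strand) and Ndufa11 (chr17:56717642-56717761, plus strand), neither called by genotype, are shown because they hold NRF1 letters. Sequences run 5′ to 3′ on the gene's strand, and capitals mark motif matches.
Ndufa1: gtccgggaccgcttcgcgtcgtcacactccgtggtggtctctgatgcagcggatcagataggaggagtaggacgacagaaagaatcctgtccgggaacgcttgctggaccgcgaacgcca
Ndufa10: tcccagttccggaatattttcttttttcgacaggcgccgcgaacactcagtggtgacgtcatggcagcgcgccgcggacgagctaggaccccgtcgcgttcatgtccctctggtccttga
Ndufb3: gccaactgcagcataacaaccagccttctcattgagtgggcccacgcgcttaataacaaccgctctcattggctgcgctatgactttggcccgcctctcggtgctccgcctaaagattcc
Ndufa8: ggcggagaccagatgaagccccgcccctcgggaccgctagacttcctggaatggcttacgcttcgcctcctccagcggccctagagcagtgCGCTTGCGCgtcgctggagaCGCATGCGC
Ndufa11: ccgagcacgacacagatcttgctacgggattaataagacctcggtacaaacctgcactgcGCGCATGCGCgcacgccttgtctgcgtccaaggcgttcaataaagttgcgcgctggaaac

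The first 3 sequences carry no capitals. In Ndufa11 a pair of matches on opposite strands overlaps, and the capitals cover both. Over the matched subunits the NRF1 letters occurred in 6 of 30 genes (20%), against 7.03% of the genes of all promoters, and the YY1 letters in 6 (20%), against 3.19%. Of the 23 matched subunits not called by genotype on average, 6 held the NRF1 letters and 5 the YY1 letters, against 0 and 1 of the 7 that fell, and these differences were not tested. The split depends on the threshold, since similar differences fell on both sides of it. Ndufa8, with NRF1 letters, differed by -0.25 (adjusted p = 0.0605 in limma), and Ndufb5, among the 7, by -0.25 (adjusted p = 0.0452). Among all 30 matched subunits the ETS letters occurred in 1 (3.33%, against 4.31%) and the ERR letters in 1 (3.33%, against 1.76%). All YY1 matches (Ndufa3, Ndufa9, Ndufb8, Ndufc1, Ndufs4 and Ndufs7) lay just after the start, between bases 23 and 46. Median GC content was 59% in the subunits' promoters and 52.7% in all. A match is a description of letters and shows no binding.

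The medians of other respiratory chain genes also lay below 0. These genes were picked by symbol, and the list includes the pseudogene symbols Atp5c1-ps and Uqcrh-ps1. Of 46 genes of complexes II to V, 0 were called at room temperature by limma (12 had an unadjusted p under 0.05), 1 rose and 2 fell at 4 °C, and 1 rose and 6 fell on average, with medians of -0.15, -0.11 and -0.14. Of all probe sets, 3.61% rose and 2.19% fell at 4 °C, and 4.24% rose and 2.73% fell on average. Of those with a mean of at least 8, 8.51% fell at 4 °C and 11.4% on average. The genes of complexes II to V that fell on average were Uqcr11, Uqcrh and Cyc1 of complex III and Atp5e, Atp5k and Atp5mpl of ATP synthase, led by Uqcr11 (-0.55 ± 0.10, adjusted p = 0.00621). Cox6a2, the heart and muscle form of a complex IV subunit, was the gene that rose (1.64 ± 0.43, adjusted p = 0.0378). For 6 of the 46 (13%) all arrays labelled knockout lay below all controls, against 6 of 33 (18.2%) of the complex I subunits, and the difference between these groups was not tested. The complex I count includes Ndufa4, later found to belong with complex IV.

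**Figure D4:**
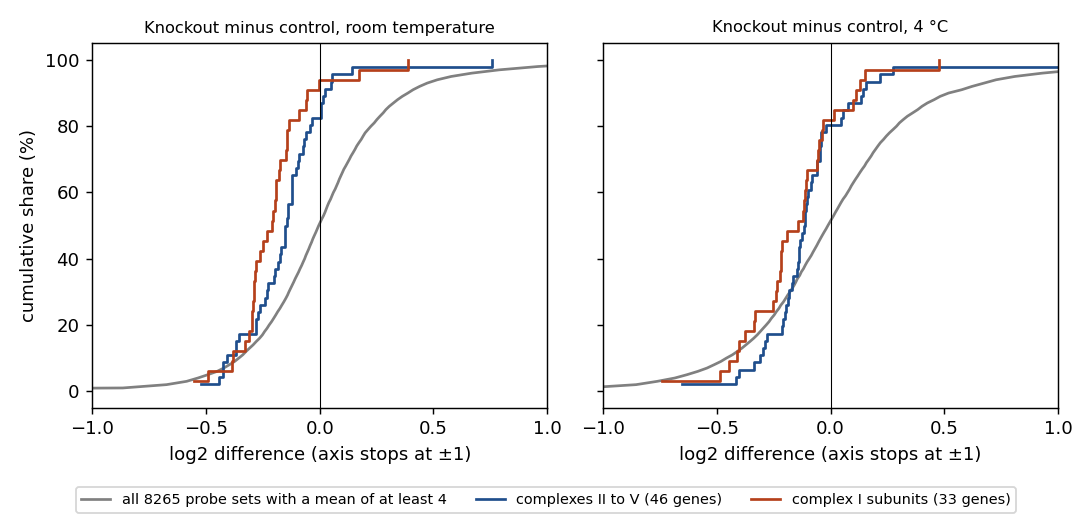
Cumulative share (%) of genes against the log2 difference of knockout minus control at room temperature (left) and 4 °C (right). Curves show the 33 complex I subunits, 46 genes picked by symbol for complexes II to V, and all 8265 probe sets with a mean of at least 4. The axis stops at ±1. The complex I curve crosses 0 after most of its genes, with medians of -0.21 and -0.14.

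Of 20 assembly factors, which build the complex and leave it, 2 fell on average and none rose, where 2.73% of all probe sets and 6.53% of those with a mean of at least 4 fell. Ndufaf1, which works with membrane arm intermediates, read 6.99, 6.90 and 6.93, and 7.20, 6.80 and 7.07 at 4 °C, in the controls, against 6.72, 6.72 and 6.33, and 6.48, 6.41 and 6.16 at 4 °C, in the arrays labelled knockout (averaged -0.51 ± 0.10, adjusted p = 0.00756). Tmem186, of the same assembly machinery, read 6.13, 6.09 and 6.30, and 5.92, 5.78 and 5.85, in the controls, against 5.73, 5.62 and 5.59, and 5.41, 5.13 and 5.32 (averaged -0.54 ± 0.08, adjusted p = 0.000698). For both, every array labelled knockout lay below every control of its temperature. Lyrm2 fell in the cold in the controls, from 6.11, 6.15 and 6.15 to 5.41, 5.41 and 5.43 (-0.72 ± 0.10, adjusted p = 0.000763). At 4 °C it was higher in the arrays labelled knockout (0.39 ± 0.10, adjusted p = 0.0362). On average over genotype, cold lowered 5 of the 20 (Lyrm2, Ndufaf3, Sfxn4, Tmem126b and Tmem186), where 10.1% of all probe sets and 19.7% of those with a mean of at least 4 fell.

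Of 12 regulators of mitochondrial genes, 4 fell by genotype at 4 °C (Esrrg, Ppara, Ppargc1a and Ppargc1b) and 0 were called at room temperature in limma (1 had an unadjusted p under 0.05). At 4 °C 2.19% of all probe sets fell, and 5.37% of those with a mean of at least 4. The interaction, which tests whether the genotype differences at 4 °C and room temperature are unequal, called 1 of the 12, Ppara, where 0.306% of probe sets were called. Ppargc1a, the coactivator PGC-1α, rose by 3.41 ± 0.25 in the cold in the controls (adjusted p = 2.09e-05) and by 1.85 ± 0.25 in the arrays labelled knockout (adjusted p = 0.00082). It read 11.49, 11.31 and 10.94 in the 4 °C controls and 9.61, 9.99 and 9.88 in the 4 °C arrays labelled knockout. Over the same cold exposure no complex I subunit rose in either genotype. The transcript of Nrf1 itself differed by 0.28 on average (adjusted p = 0.0635) and that of Esrra by -0.28 (adjusted p = 0.309).

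Mean muscle scores were lower under the knockout label at each temperature, but single arrays spread widely. At 4 °C the muscle scores of the genotypes overlapped. The 18 muscle markers had a median difference of -2.39 at room temperature and -1.04 at 4 °C, 0 of 18 were called in any comparison by limma, although 12 at room temperature, 11 on average and 0 at 4 °C had an unadjusted p under 0.05, and none lay below the array median on all arrays. Their summed linear level was 2444 to 4503 in the room temperature controls, 849.5 to 6682 in the 4 °C controls, 199.3 to 2335 in the arrays labelled knockout at room temperature and 145.2 to 2875 in those at 4 °C. The median subunit deviation from the room temperature control mean was 0.05, 0.03 and -0.04 in those controls, -0.16, -0.14 and -0.09 in the 4 °C controls, -0.21, -0.24 and -0.22 in the arrays labelled knockout at room temperature, and -0.33, -0.32 and -0.29 in those at 4 °C. When the muscle score entered the model, the subunit medians were -0.20 at room temperature and -0.16 averaged. The averaged calls of Ndufa1, Ndufa10 and Ndufa9 held (-0.66, -0.45 and -0.42, adjusted p = 0.00148, 0.0337 and 0.0361), while those of Ndufb3, Ndufb5, Ndufs8 and Ndufv1 did not (-0.37, -0.21, -0.28 and -0.25, adjusted p = 0.0606, 0.247, 0.230 and 0.158). The room temperature call of Ndufa1 was also lost, at a difference of -0.57 (adjusted p = 0.0911).

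**Figure D5:**
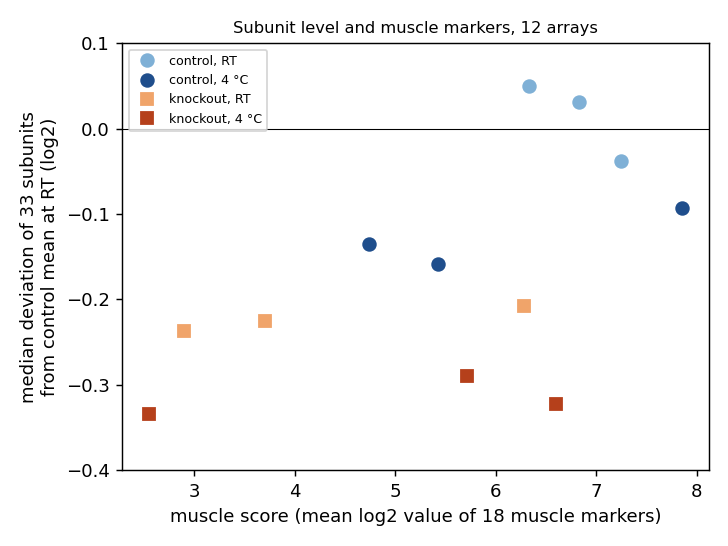
Median deviation of the 33 subunits from the room temperature control mean (log2) against the muscle score (mean log2 value of 18 muscle markers), with 1 point per array. The 6 arrays labelled knockout lie between -0.33 and -0.21 and the 6 controls between -0.16 and 0.05, at muscle scores that overlap.

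Other cell types were measured the same way. Of 4 white adipocyte markers, Nnat and Retn fell on average (-1.19 and -1.15, adjusted p = 0.0268 and 0.00357), with summed levels of 612.4 to 703.2 and 574.3 to 882.8 in the controls and 222.3 to 490.9 and 230.4 to 362.3 in the arrays labelled knockout, at room temperature and at 4 °C in turn. Among endothelial, macrophage, fibroblast and preadipocyte, T and B cell and Schwann cell markers, 0 were called by genotype on average in limma (3 of 6, 0 of 7, 1 of 6, 0 of 5 and 0 of 2 had an unadjusted p under 0.05), and 1 of 4 neutrophil markers rose (S100a8, 0.57, adjusted p = 0.0466). The neutrophil markers were dim, with a mean log2 value of 1.47 to 2.61 per array, where array medians were 2.24 to 2.31. Of these 4, 1 lay below the array median on all arrays, as did 3 of 5 T and B cell markers. Of 10 brown adipocyte markers, 0 were called on average (median -0.07, 4 with an unadjusted p under 0.05), and Pparg fell at 4 °C (-0.78, adjusted p = 0.0144). Their part in the subunit differences was not tested.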

How the data were processed

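The deposited table holds log2 expression values that the authors made with RMA, per the submitters' processing notes; its version and settings are not given in the sources used here. RMA corrects background, quantile-normalizes the arrays and summarises each probe set, which compresses differences of dim and very bright probe sets. Symbols came from the platform annotation, and the 1814 probe sets with several symbols were left out. Groups came from the sample titles. Within groups, arrays correlated at r = 0.985 to 0.993 across probe sets. The labels do not say how mice were picked or housed, and p-values therefore reflect only array-to-array spread.

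With limma 3.58.1 (R 4.3.3), a linear model with moderated variance (eBayes) fitted 1 mean per group to all 12 arrays without a brightness filter, giving 8 residual degrees of freedom, for 7 comparisons with Benjamini-Hochberg adjustment over 23521 probe sets. The fit was tested on simulated data.

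Array values are given for each subunit called in any comparison and for the core subunits, and differences also for the 3 largest per comparison. Values of other subunits whose arrays did not overlap, of assembly factors and of regulators were added after the results were seen. The members and all gene and motif lists were chosen with earlier results of these data known. Alternatives left out each array, moved control replicate 3, used only the compared arrays, a brightness filter, all probe sets, gene means, median centring, the replicate number as a block, the muscle score, and a trended robust variance. Figures were drawn with matplotlib 3.10.9.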

Additional observations from a re-analysis of the deposited data

Results flagged for a closer look

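Ppara, a nuclear receptor of fatty acid oxidation listed among the regulators, was the listed regulator whose cold response differed between genotypes by the interaction test in limma (-1.64 ± 0.25 SE, adjusted p = 0.0188). It read 7.14, 7.06 and 7.26 in room temperature controls and 7.19, 6.68 and 6.81 in 4 °C controls. Arrays labelled knockout read 7.42, 6.89 and 7.59 at room temperature and 5.48, 5.36 and 5.35 at 4 °C.

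A bright probe set (mean 8.01) shared by Ndufs5 and Ndufs5-ps was outside the counts because it carries 2 symbols. It fell in the cold in the controls (-0.41 ± 0.10, adjusted p = 0.0424 in limma over all probe sets) and on average over genotype (-0.31 ± 0.07, adjusted p = 0.0177). It read 8.22, 8.17 and 8.35 in the room temperature controls and 7.97, 7.82 and 7.71 in the 4 °C controls, then 8.11, 8.06 and 8.06, and 7.95, 7.89 and 7.74 at 4 °C, in the arrays labelled knockout. The single-symbol Ndufs5 probe set is dim (mean 3.46) and its difference in the controls had the other sign (0.60 ± 0.24, adjusted p = 0.148). Which gene the shared signal comes from cannot be told apart.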

How the results depend on the processing

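No called difference, and none of the 3 largest per comparison, changed sign under any alternative. Of the 231 differences of the 33 subunits in 7 comparisons, 47 changed sign in at least 1 alternative, none of them called and the largest 0.12 in size. Averaged Ndufb11 was -0.03 with the muscle score, and Ndufv3 by genotype at 4 °C was -0.03 with control replicate 3 moved. Among the called and largest differences, 671 values kept their side of the threshold, 55 lost it and 13 gained it. Counts of called subunits moved beyond 1.5 times as follows. At room temperature the count by genotype (1) became 0 with control replicate 3 moved to 4 °C, with only the arrays compared and with the muscle score, and 2 with probe sets of mean at least 4 and with the trended robust variance. All probe sets that fell in these fits numbered 20, 42, 24, 167 (of 8265) and 137 in turn, against 101 in the main fit. At 4 °C the count by genotype (2) became 1 with only the arrays compared, where 356 of 23521 probe sets fell. It became 6 of 32 with the brightness filter, where 652 of 8265 fell, and 4 with the trended variance, where 527 of 23521 did. The averaged genotype count (7) became 3 with the muscle score, a setting in which 319 of all probe sets fell, against 641 in the main fit. The cold count in controls (1) became 0 with replicate 3 moved, a setting that called 0 of all probe sets in that comparison, and 2 with the brightness filter, where 1330 of 8265 fell. The averaged cold count (2) became 1 and 4 under the same settings, where 1196 of 23521 and 1938 of 8265 probe sets fell. Leaving out 1 array gave 0 to 2 at room temperature, 1 to 3 at 4 °C, 4 to 6 averaged, 1 to 2 for cold in controls, and 2 to 3 for averaged cold, and 0 for the remaining comparisons.

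Replicate numbers did not pair the arrays: deviations of same-numbered arrays correlated at -0.01 on average over 18 pairs, with 2 over 0.1, and 5 of 12 arrays correlated best with their own number. With the replicate number as a block the counts were 1, 2, 1, 0, 0, 5 and 2 for genotype at room temperature and 4 °C, cold in controls and in arrays labelled knockout, the interaction, averaged genotype and averaged cold. With 3 arrays per group the typical SE of a comparison of 2 groups was 0.14.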

Other observations

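Subunits read only through probe sets with several symbols gave values outside the counts. The Ndufs6 and Ndufs6b probe sets (means 10.22 and 6.20) differed by -0.15 and -0.15 by genotype on average (adjusted p = 0.314 and 0.327 in limma over all probe sets), the Ndufb2 and Adck2 probe set by -0.23 (0.261) and the probe set of Ndufb4 and its copies by -0.07 (0.780). Second probe sets of Ndufa8, Ndufa11 and Ndufa12, with means of 7.25, 3.37 and 6.63, differed by -0.07, -0.15 and -0.06 on average, and none was called in any comparison.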
